A study of Mus musculus with 6 samples.

Results

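Ribosome density on 10 genes of tissue macrophages was compared across Ribo-seq libraries of 6 mouse tissues. Ribo-seq sequences the mRNA fragments that translating ribosomes protect from nuclease. The genes were Csf1r, Lyz2, C1qa, C1qb, C1qc, Cd68, Adgre1, Marco, Mrc1 and Ctss, chosen by symbol as known macrophage genes, and all 10 were found by their Ensembl gene ID among 18437 protein-coding mRNAs listed in any library. The mice were WT, of the C57BL/6J strain, 4 weeks old and untreated, and there was 1 library for each of 6 labels, namely lung, heart, brain, kidney, colon and small intestine. The labels do not give the number or the sex of the mice behind a library. Levels are RPKM, which is reads on the coding sequence (CDS) per kilobase of CDS and scaled to the reads on all CDSs. Levels of different mRNAs are thus corrected for length and total only, not for reads that cannot be assigned to 1 gene. Since each label had 1 library, no replicate check and no test between tissues could be made. For the same reason each interval is a 95% interval that covers counting error only. The reads carry no molecular identifiers, so repeated copies of 1 fragment count as separate reads and the intervals may be too narrow. In bulk tissue, fewer cells of a type and less RNA per cell cannot be told apart.

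Tissue macrophages settle in most organs and survive there on signals through the CSF1 receptor, which is encoded by Csf1r. They clear debris with scavenger and lectin receptors, degrade it in lysosomes, and are a main source of C1q, the recognition molecule of the classical complement pathway. Each organ has its own types, such as microglia in the brain parenchyma, alveolar macrophages in the air spaces of the lung, and interstitial or perivascular macrophages in connective tissue.

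Lyz2 encodes the lysozyme of myeloid cells, an enzyme that cuts bacterial cell walls, and was the single member of the 10 that shared coding sequence with another mRNA. The gene (GRCm39, chr10:117111557-117118346, minus strand) lies beside Lyz1, the lysozyme of Paneth cells (chr10:117123698-117128775, same strand). Both CDSs had 444 nt and differed at 22 bases, with a longest identical run of 118 nt. Of the 416 windows of 29 nt in the Lyz2 CDS, 169 (40.6%) were identical in Lyz1, 153 differed at 1 or 2 bases and 94 differed at more. Windows of about the length of a ribosome footprint are shown because reads from the identical ones cannot be assigned to either gene. The most different window, at CDS bases 104 to 132 in coding exon 1, holds 7 differences, marked by capitals. It lies at chr10:117118016-117118044 in Lyz2 and at chr10:117128612-117128640 in Lyz1, both read 5′ to 3′ on the minus strand.
Lyz2: tggCtggctacTAtggAgtcaGCctggcC
Lyz1: tggAtggctacCGtggTgtcaAGctggcT
An identical window lies at CDS bases 8 to 36 of the same exon, at chr10:117118112-117118140 in Lyz2.
Lyz2 and Lyz1: ctctcctgactctgggactcctcctgctt
Csf1r, C1qa, C1qb, C1qc, Cd68, Adgre1, Marco, Mrc1 and Ctss had 0 windows of 29 nt in common with another listed mRNA.

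The libraries held between 4504853 reads (labelled colon) and 10635031 reads (labelled brain) on CDSs. Tissue markers went against 4 of the 6 labels, so each library is named by its label throughout. Snap25, Gfap and Mbp, markers of brain, were highest in the library labelled small intestine, and Apoa4, Fabp1 and Sis, markers of small intestine, in that labelled brain. Umod, Slc12a1 and Slc34a1, markers of kidney, were highest in the library labelled colon, and Muc2, Slc26a3 and Car1, markers of colon, in that labelled kidney. The markers of heart (Myh6, Tnnt2, Nppa) and lung (Sftpc, Scgb1a1, Ager) were highest under their own label. Reads on Kri1 made up 22.1% of all in the library labelled kidney, 14.1% in the one labelled small intestine and between 0.400% and 6.79% elsewhere, which lowers the RPKM of every other mRNA there but not their ratios.

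Macrophage mRNAs were read in every library. The 10 members took 0.0757% of the reads (0.0738 to 0.0777) in the library labelled lung and 0.0610% (0.0593 to 0.0628) in that labelled kidney. The libraries labelled brain and heart followed with 0.0363% (0.0351 to 0.0374) and 0.0362% (0.0350 to 0.0376), and did not differ beyond counting error. The share was 0.0280% (0.0269 to 0.0292) in the library labelled small intestine and lowest, at 0.0112% (0.0103 to 0.0122), in that labelled colon. Lyz2 alone supplied 2496 of the 5855 member reads in the library labelled lung. Without Lyz2 the share there was 0.0435%, below the 0.0607% of the library labelled kidney. The library labelled kidney also passed that labelled lung without Kri1 in the total (0.0783% against 0.0760%), without the 10 most read mRNAs (0.0971% against 0.0845%) and under median-of-ratios scaling, which sets libraries to the same typical level over mRNAs read in all of them (0.0701% against 0.0559%). The median level of the 10 members was between 3.10 and 4.86 on the log2(RPKM + 1) scale, with unlisted mRNAs counted as 0, against 2.39 to 2.91 for all 15432 mRNAs with at least 10 reads over the libraries.

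All 10 members had at least 10 reads over the libraries, and 7 had reads in each of them, as did 56.0% of all 15432 such mRNAs. The library labelled kidney had the highest level of 5 members (C1qa, C1qb, C1qc, Adgre1 and Ctss), where 9.1% of all mRNAs were highest. The library labelled lung had the highest level of 4 (Lyz2, Cd68, Marco and Mrc1), where 24.5% of all mRNAs were highest, and that labelled small intestine of 1 (Csf1r), where 23.5% were. Lyz2, Cd68 and Marco passed the next library by at least 2-fold, all in the library labelled lung, where 10.7% of all mRNAs did so. No member passed it under the labels kidney, heart, brain, colon or small intestine, where 3.52%, 5.43%, 5.49%, 5.8% and 14.8% of all mRNAs did. Somewhere among the 6, 45.7% of mRNAs passed this fold, against 3 of the 10 members.

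**Figure D1:**
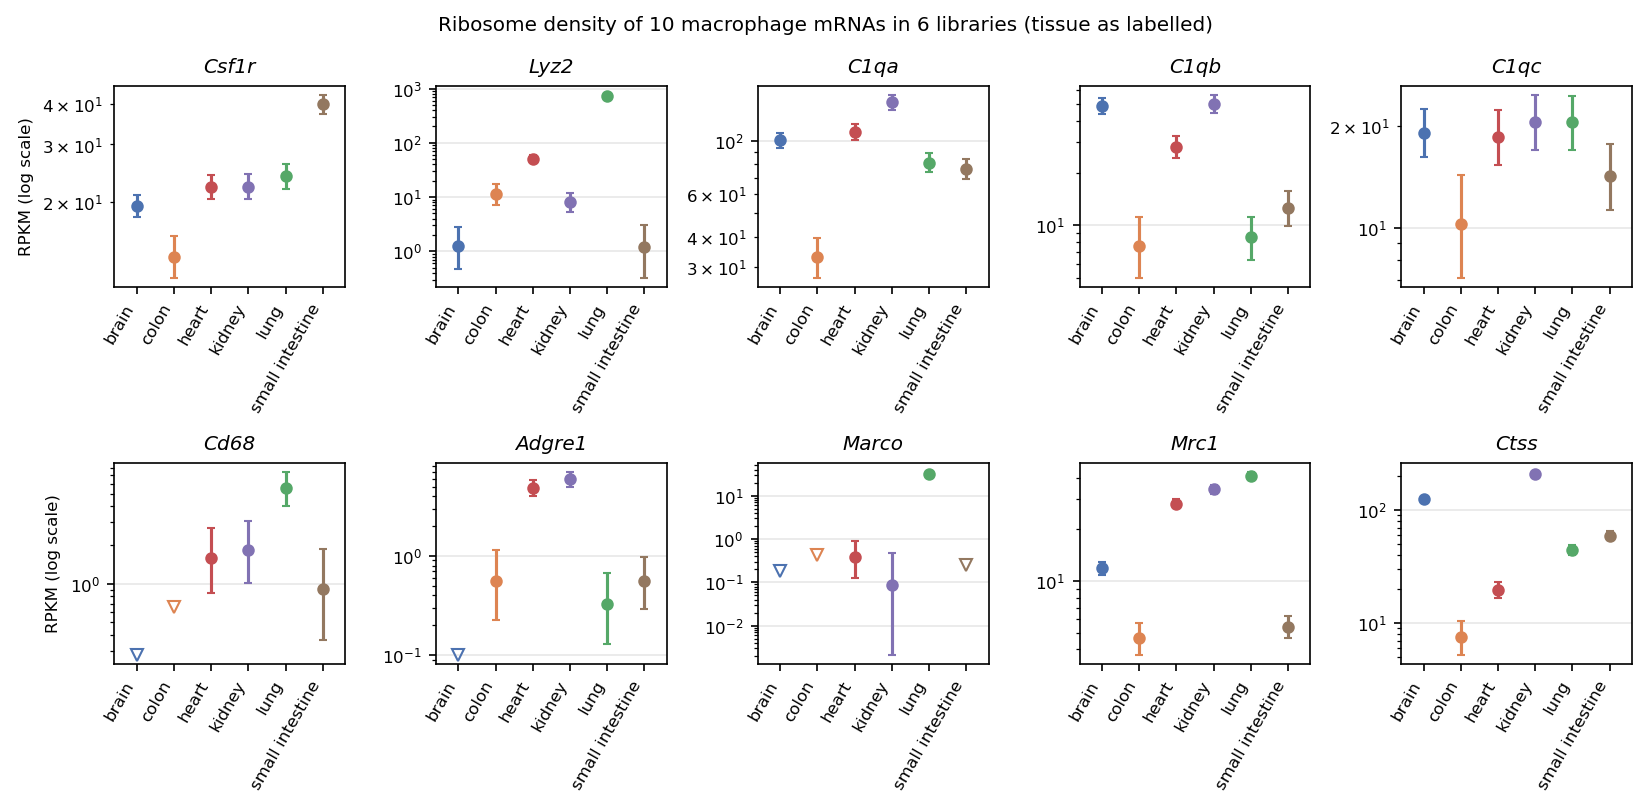
RPKM of the 10 macrophage mRNAs (log scale, each panel with its own range) in the 6 libraries, with exact 95% Poisson intervals; an open triangle marks a library where the mRNA was not listed, drawn at the level 3 reads would give. Lyz2 and Marco stand far above the rest in the library labelled lung, at 727 and 32.6 RPKM, while C1qc stays between 10.2 and 20.5 RPKM.

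Csf1r, on chromosome 18, encodes the receptor for both CSF1 and IL-34. Its level was 39.8 RPKM (37.2 to 42.5) in the library labelled small intestine, 24.0 RPKM (22.0 to 26.1) in that labelled lung and 22.3 RPKM in both those labelled kidney (20.4 to 24.4) and heart (20.4 to 24.2). Lower levels of 19.5 RPKM (18.0 to 21.1) and 13.6 RPKM (11.7 to 15.8) were found under the labels brain and colon. Those labelled lung, kidney and heart did not differ beyond counting error, and the step from the library labelled small intestine to the next was 1.66-fold (1.49 to 1.85). The highest level was 2.92-fold the lowest. That ratio had a median of 6.36 (quartiles 3.74 and 13.4) over the 6715 mRNAs with at least 10 reads in each library, and 13.4% of them varied less than Csf1r. Of its ligands, Csf1 had 26.4 RPKM in the library labelled lung, between 13.8 and 16.3 RPKM in those labelled heart, kidney and small intestine, 2.41 RPKM in that labelled colon and 0.908 RPKM in that labelled brain. Il34, a ligand made by neurons and keratinocytes, was read sparsely. It had 15 reads (2.78 RPKM) under the label small intestine, 8 under kidney and at most 3 in each of the others.

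C1qa, C1qb and C1qc encode the A, B and C chains of C1q, which assemble in equal numbers. The genes are neighbours on the minus strand of chromosome 4, with C1qb at chr4:136606009-136613511, C1qc at chr4:136616466-136620376 and C1qa at chr4:136623223-136626161, a span of 20153 bp. C1qa had the highest level of the chains in every library, with 144 RPKM in that labelled kidney, 109 RPKM in that labelled heart and 100 RPKM in that labelled brain, from 801, 653 and 785 reads. The libraries labelled lung and small intestine had 81.1 RPKM and 76.4 RPKM of C1qa, which did not differ beyond counting error, and that labelled colon had 32.9 RPKM. C1qb had 288 reads in the library labelled kidney, a level within 44.4 to 56.2 RPKM, which could not be told apart from the 48.7 RPKM (44.0 to 53.7) of that labelled brain. Its level was 28.3 RPKM in the library labelled heart and 12.6, 8.52 and 7.60 RPKM in those labelled small intestine, lung and colon. C1qc was the flattest member, with 20.5, 20.5, 19.1, 18.5, 14.2 and 10.2 RPKM in the libraries labelled kidney, lung, brain, heart, small intestine and colon. No step between neighbours in that order exceeded counting error. Its highest level was 2.01-fold its lowest (1.36 to 3.04), and 2.74% of mRNAs varied less.

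The chains did not keep 1 ratio across the libraries. C1qb stood at 0.485 of C1qa (0.428 to 0.548) under the label brain, 0.348 (0.303 to 0.399) under kidney, 0.261 (0.220 to 0.309) under heart and 0.231 (0.144 to 0.357) under colon. In the libraries labelled small intestine and lung the ratio was 0.165 (0.127 to 0.212) and 0.105 (0.0768 to 0.141). The intervals of the libraries labelled brain and lung are far apart. C1qc over C1qa moved less, from 0.143 (0.117 to 0.174) in the library labelled kidney to 0.311 (0.205 to 0.460) in that labelled colon. C1qb passed C1qc in the libraries labelled brain, kidney and heart, by 2.55-, 2.44- and 1.53-fold, and lay below it in that labelled lung, at 0.416 of its level (0.292 to 0.583). These ratios do not depend on the total reads of a library, and the cell types that supplied the chains were not tested.

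**Figure D2:**
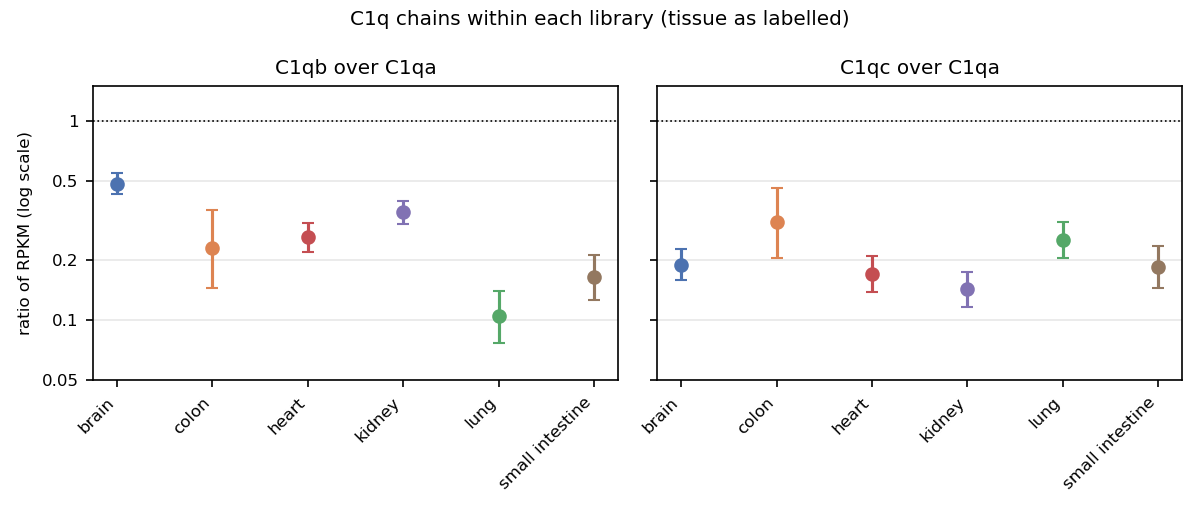
RPKM of C1qb (left) and C1qc (right) over that of C1qa within each library, on a log scale with exact 95% binomial intervals; the dotted line marks equal levels. C1qb over C1qa runs from 0.105 in the library labelled lung to 0.485 in that labelled brain, and C1qc over C1qa from 0.143 to 0.311.

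Of 6 further genes of the classical pathway, 4 were highest in the library labelled lung, as were 24.5% of all mRNAs. C1ra and C1s1, the proteases that bind C1q, were both highest in the library labelled lung, at 9.64 RPKM and 164 RPKM. Serping1, their inhibitor, was highest in that labelled kidney at 480 RPKM. C3 and C4b, which the cascade cleaves, had 602 RPKM and 93.7 RPKM in the library labelled lung, 3.27- and 3.89-fold above the next. C2 had 20.8 RPKM in that labelled brain, 2.30-fold above the next. Of all mRNAs, 10.7% passed 2-fold in the library labelled lung and 5.49% in that labelled brain.

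Marco and Mrc1 encode receptors for what macrophages take up. Marco, a class A scavenger receptor of chr1:120402267-120432753 (minus strand), had 392 reads and 32.6 RPKM (29.5 to 36.0) in the library labelled lung. There were 5 reads (0.393 RPKM) in the library labelled heart and 1 read in that labelled kidney, and no listing under the labels brain, colon and small intestine. The difference between the libraries labelled lung and heart was 83.0-fold (35.3 to 257). Between the same libraries the lung markers of epithelial cells differed by 197-fold (Sftpc), 135-fold (Scgb1a1) and 211-fold (Ager). Whether any of the reads outside the library labelled lung passed between libraries was not tested.

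Mrc1, the mannose receptor of chr2:14234151-14336926 (plus strand), was instead shared by several tissues. It had 41.2 RPKM (39.1 to 43.4) in the library labelled lung, 34.4 RPKM (32.4 to 36.4) in that labelled kidney and 28.3 RPKM (26.6 to 30.1) in that labelled heart, then 11.9, 5.39 and 4.62 RPKM under the labels brain, small intestine and colon. Each step but the last exceeded counting error. The first step was small, within 1.11- to 1.30-fold, and the first place passed to the library labelled kidney when the reads of Kri1 were left out of the total or when libraries were scaled by median-of-ratios. Some endothelium also expresses Mrc1, and of 5 endothelial markers Pecam1 (565 RPKM), Cdh5, Kdr and Flt4 were highest in the library labelled lung by 4.52- to 6.21-fold, and Prox1 in that labelled heart. Of all mRNAs, 24.5% were highest in the library labelled lung, 10.7% by at least 2-fold, and 12.8% were highest in that labelled heart. The summed level of the 5 endothelial markers was 2009 RPKM in the library labelled lung, 452 RPKM in that labelled heart and 70.1 RPKM in that labelled kidney. The part of endothelium in Mrc1 was not tested.

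Among 9 further scavenger and lectin receptors, 7 were highest in the library labelled lung (24.5% of all mRNAs) and 4 of these by at least 2-fold (10.7%). Those 4 were Colec12 (124 RPKM), Mrc2 (114 RPKM), Scarb1 (39.5 RPKM) and Clec7a (37.5 RPKM). Mrc2, a collagen receptor related to Mrc1, had 2.76 times the level of Mrc1 in the library labelled lung and 0.323 times in that labelled kidney. Msr1, another class A scavenger receptor, was highest in the library labelled brain at 10.3 RPKM and had 4.42 RPKM in that labelled lung.

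Lyz2 had the highest level of any member, 727 RPKM (699 to 756) in the library labelled lung. The next was that labelled heart with 50.6 RPKM (43.6 to 58.5), a difference of 14.4-fold (12.4 to 16.8). The libraries labelled colon and kidney had 11.5 RPKM and 8.02 RPKM, from 23 and 27 reads, and those labelled brain and small intestine 1.27 RPKM and 1.18 RPKM, from 6 and 4 reads. Neither of these last pairs differed beyond counting error. Type 2 alveolar cells also express Lyz2, and their markers Sftpc, Sftpb and Lamp3 were all highest in the library labelled lung, with a sum of 40412 RPKM against at most 211 RPKM elsewhere; their part in the Lyz2 level was not tested. Lyz1 had another order, with 149 RPKM from 703 reads in the library labelled brain, 65.6 RPKM from 225 reads in that labelled lung and at most 8.25 RPKM in the others. In the library labelled brain, Mmp7 (266 RPKM), Ang4 (240 RPKM) and Itln1 (1367 RPKM), markers of Paneth and related secretory cells, were highest as well, so all 4 genes of that list were highest there. Of all mRNAs, 14.9% were highest there, and Ang4 was only 1.16-fold above the library labelled kidney. Lyz2 over Lyz1 was 0.00853 in the library labelled brain and 11.1 in that labelled lung. Both ratios are over reads that were assigned to 1 gene, and 40.6% of the windows are identical as shown above.

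Cd68 and Ctss act in lysosomes. Cd68, a lysosomal membrane glycoprotein used as a stain for macrophages (chr11:69555037-69557067, minus strand), was the most sparsely read member, with 77 reads in all. It had 43 reads and 5.53 RPKM (4.01 to 7.46) in the library labelled lung, 14 reads under the label kidney, 13 under heart and 7 under small intestine, and was not listed under brain and colon. The first step was 3.01-fold (1.62 to 5.96), and the other listed levels, between 0.911 and 1.84 RPKM, could not be told apart from their neighbours. Under median-of-ratios scaling Cd68 no longer passed 2-fold.

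Ctss, the cathepsin that trims the invariant chain for antigen presentation (chr3:95433963-95463717, plus strand), had 209 RPKM (199 to 219) in the library labelled kidney and 125 RPKM (119 to 132) in that labelled brain. Those labelled small intestine, lung, heart and colon followed with 59.7, 44.8, 19.7 and 7.59 RPKM. All 5 steps exceeded counting error. The highest was 27.5-fold the lowest (19.7 to 39.6), and 87.5% of mRNAs with reads in each library varied less. The first step was 1.67-fold and passed 2-fold when the reads of Kri1 were left out of the total. Other lysosomal proteases were spread over the labels. Of 9, the library labelled lung held the highest level of 3 (Ctsc, Ctsh, Ctsk), that labelled colon of 2 (Ctsl, Lgmn), and those labelled brain (Ctsa), heart (Ctsd), kidney (Ctsz) and small intestine (Ctsb) of 1 each. The shares of all mRNAs highest under these labels, in the same order, were 24.5%, 15.2%, 14.9%, 12.8%, 9.1% and 23.5%. Ctsl alone passed 2-fold, with 2701 RPKM in the library labelled colon, 5.82-fold above the next, as did 5.8% of all mRNAs there.

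Adgre1 encodes F4/80, an adhesion receptor long used to identify mouse macrophages, and lies at chr17:57665573-57790527 on the plus strand. It had 5.95 RPKM (4.96 to 7.08) from 126 reads in the library labelled kidney and 4.90 RPKM (4.03 to 5.90) from 112 reads in that labelled heart, which could not be told apart. Those labelled small intestine, colon and lung had 12, 7 and 7 reads, or 0.562, 0.556 and 0.324 RPKM, and no listing was found under brain. The library labelled lung, where Marco and Lyz2 were highest, was thus among the lowest for Adgre1, and the drop from the library labelled heart to that labelled small intestine was 8.72-fold (4.80 to 17.4).

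Relative to Csf1r in the same library, a ratio free of the total, the members varied to different degrees. The highest ratio over the lowest was taken among libraries with at least 10 reads of the member. Over all 6 libraries it was 2.75 for C1qc, 3.35 for C1qa, 7.90 for C1qb, 12.7 for Mrc1 and 16.8 for Ctss. This order changed when Cd68 took the place of Csf1r. Cd68 (3.25) and Adgre1 (18.9) had 3 such libraries and Lyz2 (84.4) had 4. Their values leave out the libraries with the fewest reads, so they are not ranked with the others. Cd68 over Csf1r, for example, fell from 0.231 under the label lung to 0.0229 under small intestine, where Cd68 had 7 reads. Marco had 1 such library and thus no value. C1qc stood at 0.357 to 0.981 of Csf1r and C1qa at 1.92 to 6.44. Lyz2 was 30.3 times Csf1r (27.6 to 33.4) in the library labelled lung, 2.27 times in that labelled heart and 0.0296 of it in that labelled small intestine. Ctss was 9.36 times Csf1r in the library labelled kidney, 6.44 times in that labelled brain and between 0.557 and 1.87 in the others. Mrc1 exceeded Csf1r in the libraries labelled lung (1.72), kidney (1.54) and heart (1.27), and was at 0.136 of it in that labelled small intestine. Marco was 1.36 times Csf1r (1.19 to 1.55) in the library labelled lung and 0.0177 of it in that labelled heart. Adgre1 was 0.0135 of Csf1r in the library labelled lung and 0.267 in that labelled kidney.

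**Figure D3:**
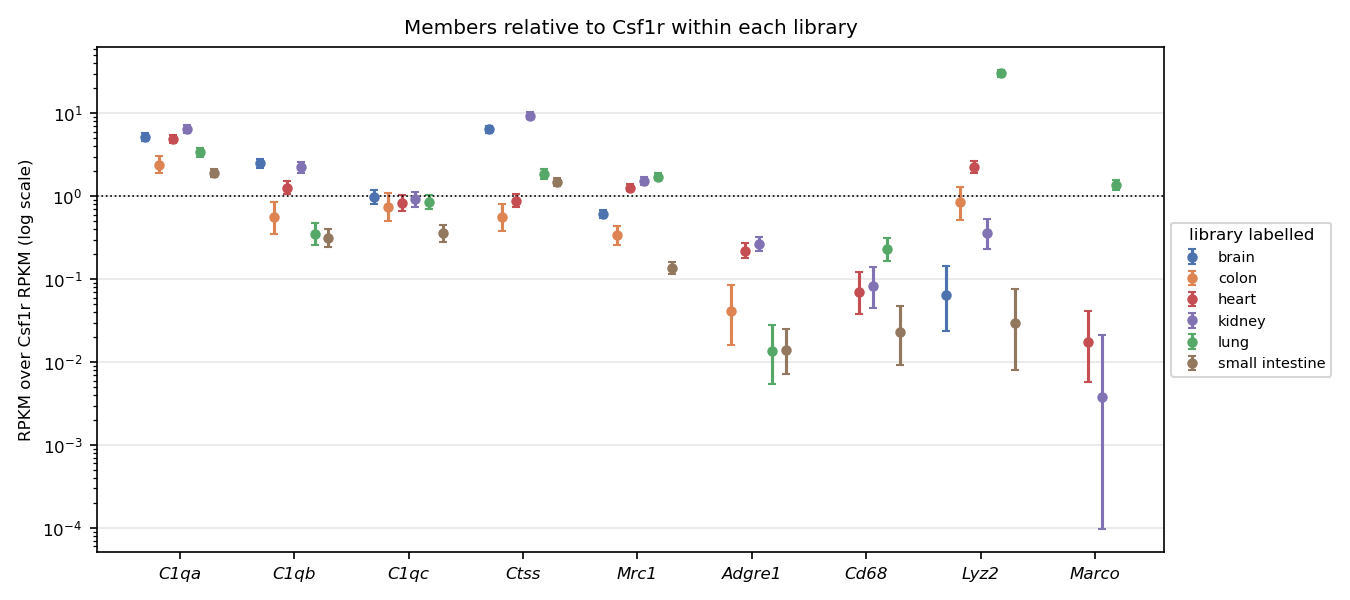
RPKM of each member over that of Csf1r in the same library, on a log scale with exact 95% binomial intervals; colours are libraries, the dotted line marks the level of Csf1r, and unlisted mRNAs are left out. C1qc keeps within 0.357 to 0.981, while Lyz2 spans 0.0296 to 30.3.

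Further genes found in most macrophages did not follow 1 library. Of 13 such genes, all with at least 10 reads, 7 were highest in the library labelled lung (24.5% of all mRNAs) and 4 of these by at least 2-fold (10.7% of all mRNAs), namely Ptprc (69.6 RPKM), Mpeg1 (48.7 RPKM), Laptm5 (40.5 RPKM) and Spi1 (26.8 RPKM). Ptprc and Laptm5 are also read in other leukocytes. The library labelled brain, where 14.9% of all mRNAs were highest, had the highest level of Mertk (48.7 RPKM), a receptor for apoptotic cells, and of Itgam (1.10 RPKM). Itgam passed 2-fold there, as did 5.49% of all mRNAs, on 41 reads against 2 in the library labelled small intestine. Fcgr1 (1.06-fold) and Aif1 (1.13-fold) were highest in the library labelled heart (12.8% of all mRNAs). Cd53 (1.08-fold) was highest in that labelled kidney (9.1%) and Tyrobp (1.06-fold) in that labelled small intestine (23.5%). For Fcgr1, Aif1, Cd53 and Tyrobp the interval of the highest level overlapped that of the next library. Tyrobp and Fcer1g, adaptor proteins with similar signalling roles, went apart. Fcer1g had 261 reads (122 RPKM) and Tyrobp 1 read in the library labelled lung, while that labelled small intestine had 49 reads of Tyrobp (18.7 RPKM) and 1 of Fcer1g.

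Markers of macrophage types were set beside the members. Of 9 alveolar macrophage markers, 5 were highest in the library labelled lung, as were 24.5% of all mRNAs, and 3 of these passed 2-fold, as did 10.7%. Ear2, an eosinophil-associated ribonuclease, had 3123 RPKM there and at most 29.3 RPKM in any other library. Chil3, a chitinase-like lectin, had 212 RPKM, 115-fold above the next. Krt79 had 9.83 RPKM, at least 23.5-fold above the level that 3 reads would give elsewhere, and Ctsk (76.1 RPKM) and Itgax (35.2 RPKM) were highest there by under 2-fold. Siglecf, a defining marker, went the other way, listed at 0 in the library labelled lung and with 4.13 RPKM from 75 reads in that labelled brain. Pparg, the transcription factor of these cells, had 1 read in the library labelled lung and 9.57 RPKM in that labelled kidney, Plet1 was highest in that labelled kidney, and Fabp4, which endothelium and fat also express, in that labelled heart. The Ear2 CDS shared 33.0% of its windows with Ear1, Ear14 or Rnase2a.

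Of 10 microglial markers, 9 were listed in any library and 6 were highest in the library labelled small intestine, which held the brain markers and the highest Csf1r. Of all mRNAs, 23.5% were highest there and 14.8% passed 2-fold there. P2ry12, the purinergic receptor that defines microglia, had 36 reads (4.52 RPKM) there, 1 read in that labelled heart and was not listed in the others. P2ry13 (8.15 RPKM, 3.75-fold) and Trem2 (4.03 RPKM, 4.10-fold) passed 2-fold there as well, and Siglech (31.8 RPKM), Cx3cr1 (19.7 RPKM) and Gpr34 (1.86 RPKM) were highest by less. Cx3cr1 was 1.06-fold above the library labelled lung, and Gpr34 had 16 reads against 9 in that labelled heart. Both pairs of intervals overlapped. Tmem119 and Olfml3 were highest in the library labelled lung and Sall1 in that labelled colon. Olfml3 (4.00-fold) and Sall1 (3.88-fold) passed 2-fold in those libraries, as did 10.7% and 5.8% of all mRNAs. The library labelled colon held the kidney markers, and the cells that supplied Tmem119, Olfml3 and Sall1 were not tested. In the library labelled brain P2ry12 and P2ry13 were not listed, Gpr34 and Cx3cr1 were listed at 0 and Trem2 had 1 read, while Siglech had 17.9 RPKM. Tmem119 and Olfml3 had 10.7 RPKM and 28.8 RPKM under the label brain, above the 8.25 RPKM and 8.91 RPKM under the label small intestine. Mrc1, Lyz2, Marco and Adgre1 were low or unlisted in the library labelled small intestine, between 0.562 and 5.39 RPKM where listed. Ctss, which microglia express, had 59.7 RPKM there, below the 209 RPKM under the label kidney and the 125 RPKM under brain. C1qa, C1qb and C1qc had 76.4, 12.6 and 14.2 RPKM there, and each was highest in the library labelled kidney.

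Of 9 markers of interstitial and perivascular macrophages, 5 were highest in the library labelled heart, as were 12.8% of all mRNAs, and 2 of these passed 2-fold, as did 5.43%. Folr2, a folate receptor, had 6.49 RPKM (5.30-fold above the next) and Clec10a, a lectin, 8.99 RPKM (3.94-fold). Cd163 (31.8 RPKM), F13a1 (34.2 RPKM) and Pf4 (61.7 RPKM) were highest by under 2-fold, with Cd163 at 30.0 RPKM in the library labelled kidney. Lyve1 (258 RPKM), Mgl2 (23.5 RPKM) and Stab1 (18.8 RPKM) were highest in the library labelled lung, with Lyve1 (4.54-fold) and Mgl2 (2.37-fold) past 2-fold, and Lyve1 is also expressed by lymphatic endothelium. Timd4 had 9 reads in all and was below the minimum. Folr2 and Clec10a were not listed in the library labelled lung. Mrc1 was 0.890 of Cd163, a partner marker of these cells, in the library labelled heart, 1.15 of it in that labelled kidney and 2.99 of it in that labelled lung.

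**Figure D4:**
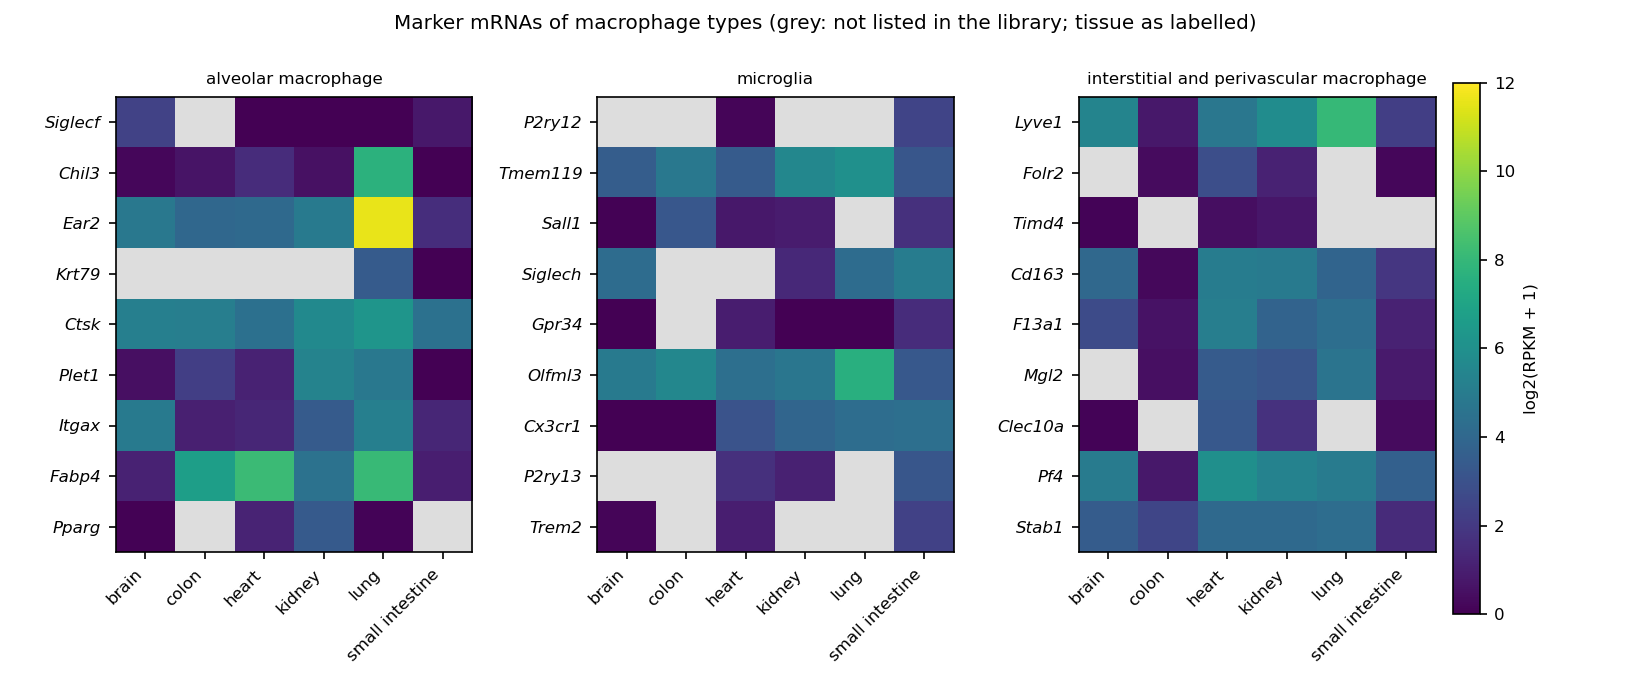
Level of alveolar, microglial and interstitial macrophage markers as log2(RPKM + 1) (colour) in the 6 libraries (columns); grey marks an mRNA that was not listed. Ear2 (3123 RPKM) and Chil3 (212 RPKM) stand out in the library labelled lung, P2ry12 is above 1 read only in that labelled small intestine, and Folr2 and Clec10a are highest in that labelled heart.

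Other blood cells were read beside the macrophages, and 24.5% of all mRNAs were highest in the library labelled lung. Of 6 listed markers of monocytes and neutrophils, 4 were highest in the library labelled lung, among them S100a9 (319 RPKM, 52.1-fold), Ngp (71.8 RPKM) and Ccr2 (12.7 RPKM), and Plac8 had 873 RPKM in that labelled brain. Of 6 T and B cell markers, 5 were highest in the library labelled lung, with Ms4a1 at 30.4 RPKM and Cd8a at 9.60 RPKM. Of 6 dendritic cell markers, 4 had at least 10 reads, of which Zbtb46 (16.0 RPKM) and Cd209a (26.8 RPKM) were highest in the library labelled lung, Flt3 in that labelled small intestine and Clec9a in that labelled heart. Xcr1 had 0 reads in every library. The summed level of the monocyte and neutrophil list was 514 RPKM in the library labelled lung, 889 RPKM in that labelled brain and between 12.5 and 342 RPKM in the others. Plac8 alone made up 873 RPKM of the sum under the label brain, where 3 of the 6 listed markers had reads. The median of the list on the log2(RPKM + 1) scale was 5.29 in the library labelled lung and 0.171 in that labelled brain. The part of these cells in the levels of Lyz2, Cd68 and Ctss, which they also express, was not tested.

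The mRNAs most like a member over the 6 libraries, by Pearson r of log2(RPKM + 1) among 12549 mRNAs with at least 100 reads, are given as a description. The 6 points share the totals of the libraries. For Csf1r they were Slc9a9 (0.99), Ptprs, Jazf1, Basp1 and Slc7a5, all highest in the library labelled small intestine, and Basp1 reached 363 RPKM there. For Mrc1 they were Rps6ka3 (1.00), Fam162a, Crispld2, Lst1 and Ccr1. For C1qa they were Entrep1 (0.97), Pisd, Pik3c2b, Coa5 and Zfp175. For Marco they were Olr1 (1.00), Spata18, Bpifa1, Cdhr18 and Spink5. The 5 most like Marco had 32.2, 13.7, 221, 9.43 and 23.15 RPKM in the library labelled lung, in that order, against 32.6 RPKM of Marco. Each had at most 0.586 RPKM in any other library. Olr1 is a scavenger receptor of endothelium and macrophages, and the cells that supplied these mRNAs were not tested. An r of at least 0.95 was reached by 172 mRNAs with Marco, 22 with Csf1r, 16 with Mrc1 and 4 with C1qa.

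The study is about codon usage in macrophages, and the codons of the members were read from their CDSs as a property that did not enter their choice. GC3 is the share of synonymous codons that end in G or C. It was 72.4% for C1qc, 66.4% for Csf1r, 64.8% for C1qb and 64.3% for C1qa, and 55.3%, 54.1% and 51.6% for Adgre1, Cd68 and Ctss. It was below 50% for Lyz2 (48.6%), Marco (46.8%) and Mrc1 (42.9%). With codons summed, the 10 members had 54.4% (53.0 to 55.7) against 56.6% for 18153 CDSs. That interval counts codons as independent and leaves out the spread between members, which ran from 42.9% to 72.4%. As a mean over mRNAs the share was 56.7% for the members and 58.1% for all CDSs. Of the members 7 of 10 were over 50%, as were 73.6% of all CDSs. Csf1r and the 3 C1q genes, at or above 64.3%, lay higher than 66.4% of CDSs or more, and Mrc1 higher than 12.4% of them.

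**Figure D5:**
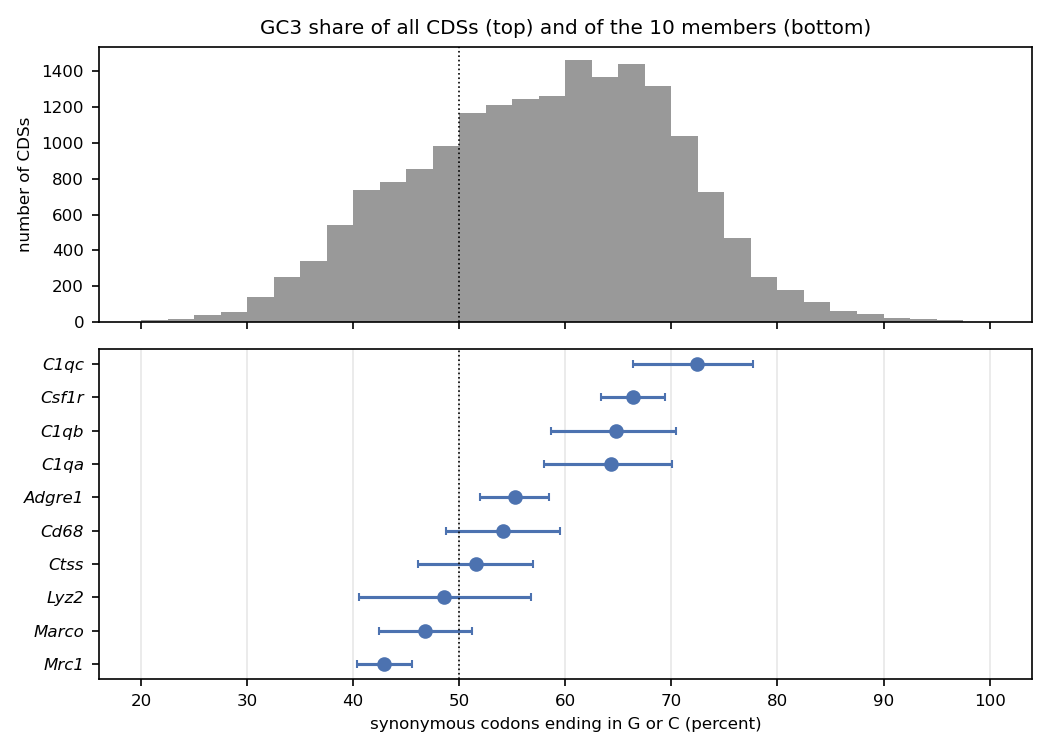
Number of CDSs by GC3 share (top, bars of equal width) and the share of each of the 10 members with its 95% Wilson interval over codons (bottom), on the same axis in percent; the dotted line marks 50%. C1qc (72.4%) lies higher than 89.3% of CDSs and Mrc1 (42.9%) higher than 12.4% of them.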

How the data were processed

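Ribo-seq was done on 6 mouse tissues, with 1 library each. For each library the deposited values are RPKM, made by the authors from reads on the CDS of 1 mRNA per gene. Their Methods, written for macrophage libraries and taken to hold here, describe trimming with Cutadapt, removal of reads under 15 nt, alignment with STAR to the isoform with the longest CDS of each gene (GRCm39, Ensembl), exclusion of reads with several positions or over 2 mismatches, P-site prediction and counting on the CDS. Cutadapt, STAR and GRCm39 are also in the submitters' processing notes. Dropping reads with several positions lowers mRNAs with close copies, such as Lyz2.

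RPKM times CDS length gave whole reads, within 0.001 of a read, for 100% of values, between 4504853 and 10635031 per library. Some mRNAs were listed at 0 (1031 to 1507 per library) and others not listed. Levels carry exact Poisson intervals, ratios exact binomial intervals and shares Wilson intervals, all at 95%. Neighbouring libraries were called apart where the interval of their ratio left out 1. An mRNA was called where its highest library was at least 2-fold over the next, among mRNAs with at least 10 reads over the libraries. Medians used log2 with a pseudocount of 1, and unlisted mRNAs entered as 0. A fold against libraries without reads was taken over the level of 3 reads.

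The members and lists were chosen with earlier results of these data known. Named were the 10 members, up to 5 called genes of each list by RPKM, genes that bear on a member directly (Lyz1, Csf1, Il34, C1ra, C1s1, Serping1), and the 5 non-members most like Csf1r, C1qa, Mrc1 and Marco. Others were named after their values were seen. Fcrls and S100a8 were in no library, and some items of the lists are not reported here. CDSs and coordinates come from GRCm39 with GENCODE release M39, where 18154 of 18437 mRNAs (98.5%) had the same CDS length. Alternatives covered the total, scaling, depth, Lyz2, fold, minimum of reads, pseudocount, reference mRNA and measure of likeness. Leaving out the library labelled colon or kidney was added after seeing the data. Read recovery was tested on simulated data. The tools were pandas 2.3.3, scipy 1.17.1, matplotlib 3.10.9 and numpy 2.4.6 under Python 3.11.15.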

Additional observations from a re-analysis of the deposited data

How the results depend on the processing

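Of the values recomputed under alternatives, 125 stayed within their counting interval or, for counts, within 1.5-fold of the main count, and 49 moved. A count that stayed by this rule could still change, as for members highest in the library labelled kidney, from 5 to 6 without Kri1. Relative to totals, median-of-ratios scaling shifted every mRNA by -0.44 on the log2 scale in the library labelled lung and by 0.20 to 0.23 in those labelled heart, kidney and small intestine, and leaving Kri1 out of the total by 0.36 in that labelled kidney. The member share became, under the labels lung, kidney, heart, brain, small intestine and colon, 0.0845%, 0.0971%, 0.0480%, 0.0423%, 0.0364% and 0.0140% without the 10 most read mRNAs, and 0.0559%, 0.0701%, 0.0415%, 0.0348%, 0.0329% and 0.0103% under median-of-ratios, so the library labelled kidney passed that labelled lung in both. Without Kri1 it was 0.0783% (labelled kidney, above the 0.0760% of that labelled lung) and 0.0326% (labelled small intestine), and without Lyz2 0.0340% (labelled heart) and 0.0435% (labelled lung). Ctss passed the fold rule in the library labelled kidney, 1 member, without Kri1, without the 10 most read mRNAs and at 1.5-fold, where Csf1r also passed, 1 member in the library labelled small intestine. Cd68 failed it at 4-fold and under median-of-ratios, and Mrc1 was highest in the library labelled kidney without Kri1, without the 10 most read mRNAs and under median-of-ratios. Thinned to the lowest total, the library labelled brain was highest for 1 member, C1qb. Without the library labelled kidney, an alternative chosen after seeing the data, those labelled brain and heart were each highest for 2 members and each passed the fold rule for 1, Ctss and Adgre1. Lyz2 and Marco passed the fold rule in the library labelled lung under every alternative that kept them. With a pseudocount of 10 the member medians were 5.25, 4.97, 4.95, 4.66, 4.22 and 4.14 in the order above. Without Lyz2 they were 4.33 (labelled brain), 4.64 (labelled lung) and 3.76 (labelled small intestine), and without Kri1 4.83 (labelled kidney). Relative to Cd68 in place of Csf1r, which leaves out libraries where Cd68 was not listed, the highest ratio over the lowest was 30.1 for Lyz2, 5.72 for C1qa, 17.7 for C1qb, 4.20 for C1qc, 5.25 for Adgre1 and 3.16 for Mrc1, against 84.4, 3.35, 7.90, 2.75, 18.9 and 12.7 relative to Csf1r. Of the 5 mRNAs most like a member, a pseudocount of 0.1 kept 2 for Csf1r, 3 for Mrc1 and 3 for Marco, and Spearman kept 2 for Csf1r, 0 for C1qa, 1 for Mrc1 and 1 for Marco. The mean GC3 share over the members was 56.7%, against 54.4% with codons summed, and over all CDSs 58.1% against 56.6%. Leaving mRNAs out of the total raises every share by arithmetic, and so does a pseudocount of 10 for every median. No cause in the tissues was tested. No paired analysis was possible because each tissue had 1 library. Depth limits Cd68, Marco and Adgre1 outside their highest libraries, where levels rest on at most 14 reads, except Adgre1 in the library labelled heart with 112.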
